A study of Mus musculus with 4 samples.

Results

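Tbx21, Eomes, Zfp683, Prdm1, Hlx, Bhlhe40, Stat4 and Id2 are 8 genes that encode transcription factors of effector lymphocytes, and their RNA was measured in mouse cDNT cells. They were taken by symbol from a table of 24768 genes, in which all 8 have a row, and each of them passed the filter on low values. The RNA of 4 libraries was sequenced. In 2 libraries the cells carry the genotype label Tbx21-KO, and in the other 2 the label WT. The labels call all 4 T cells, the title of the series names double-negative T cells, which carry neither the CD4 nor the CD8 coreceptor, and the "c" of cDNT is not spelled out. The design text calls the Tbx21-KO cells a knockdown. The sources used here do not give the strain, the age, the source of the cells or the way Tbx21 was altered. By its title the study asks how T-bet bears on the immune regulatory role of these cells.

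T-bet, the product of Tbx21, is a DNA-binding protein of the T-box family that drives the type 1 programme of lymphocytes, with interferon gamma, cytotoxic granules and the receptor CXCR3 among its outputs. It is induced by T cell receptor signals together with interferon gamma and with interleukin-12, which acts through STAT4. Eomesodermin is its closest relative in T cells and shares part of its work. Hobit, encoded by Zfp683, and Blimp-1, encoded by Prdm1, are related zinc finger repressors that maintain tissue-resident lymphocytes. HLX is a homeobox protein that acts with T-bet on the interferon gamma gene, and BHLHE40 is a basic helix-loop-helix repressor that supports cytokine output. Id2 has no DNA-binding region of its own and holds E proteins, the activators that bind CANNTG letters (E boxes), away from DNA.

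The bases just upstream of a RefSeq start of Tbx21, Eomes and Prdm1 are shown because these genes changed in different directions, Tbx21 and Eomes downward and Prdm1 upward. Each line gives the 250 bases before the RefSeq transcription start, 5′ to 3′ on the strand of the gene, in the build GRCm38.p6, with every CANNTG match in capitals. The windows are chr11:97115332-97115581 on the minus strand for Tbx21, chr9:118477939-118478188 on the plus strand for Eomes and chr10:44458749-44458998 on the minus strand for Prdm1. The Prdm1 window precedes a start that lies inside the annotated span of the gene, not at its upstream end.
Tbx21: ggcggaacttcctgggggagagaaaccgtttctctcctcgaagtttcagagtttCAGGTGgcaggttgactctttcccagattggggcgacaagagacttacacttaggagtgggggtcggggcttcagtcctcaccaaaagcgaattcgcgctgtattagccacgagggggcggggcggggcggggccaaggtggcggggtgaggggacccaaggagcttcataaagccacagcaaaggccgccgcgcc
Eomes: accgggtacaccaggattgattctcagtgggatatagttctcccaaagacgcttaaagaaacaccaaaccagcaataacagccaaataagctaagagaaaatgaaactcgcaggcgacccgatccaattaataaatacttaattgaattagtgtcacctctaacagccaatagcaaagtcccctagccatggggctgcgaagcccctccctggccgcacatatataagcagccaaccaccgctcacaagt
Prdm1: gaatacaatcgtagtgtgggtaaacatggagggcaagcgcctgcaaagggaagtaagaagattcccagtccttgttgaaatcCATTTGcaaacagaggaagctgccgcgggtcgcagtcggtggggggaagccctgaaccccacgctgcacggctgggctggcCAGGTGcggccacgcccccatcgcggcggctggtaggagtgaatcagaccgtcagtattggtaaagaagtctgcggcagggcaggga

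RefSeq promoter windows were matched for 6 of the 8 genes, as 7 windows, with 2 for Stat4. The Tbx21 window holds 1 CANNTG match, that of Prdm1 holds 2 and that of Eomes holds 0. Of the 7 windows 4 hold at least 1 match, and 66.2% of all 32851 windows of this length do. The core letters of a T-box site, TCACAC, were searched on both strands and are in 0 of the 7 windows, against 12.3% of all windows. The palindromic E box CACGTG, the kind that BHLHE40 binds, is likewise in 0 of the 7, against 6.02% of all windows. These are matches of letters in short windows only, and the CACGTG letters are also a CANNTG match.

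The table gives FPKM, the fragments per kilobase of summed exon length, scaled to the size of the library. Its low values imply library totals of 23341374 and 24031302 reads for Tbx21-KO and 24965486 and 24128780 reads for WT, which need not be the full depth. T cell identity was checked first. Cd3e, a chain of the CD3 complex, was at 40.2 and 39.8 FPKM in Tbx21-KO and at 57.2 and 56.1 FPKM in WT. Of the 17 tested genes of the T cell receptor complex 12 were lower in Tbx21-KO, 1 was higher (Cd5) and 4 were not called. Cd3e averaged 70.7% of the WT mean, and other falls were larger. Trac was at 54.1%, Trbc1 at 55.2%, Lck at 42.1% and Cd28 at 35.3% of the WT mean. Trdc, the constant segment of the delta chain and not in this list, was higher, with means of 48.2 FPKM in Tbx21-KO and 35.1 FPKM in WT. Cd4 was at 2.01 and 2.02 FPKM in Tbx21-KO and 1.74 and 1.84 FPKM in WT, and Cd8b1 was at 2.95 and 2.89 FPKM in Tbx21-KO and 1.94 and 2.93 FPKM in WT. Only these 2 of the 3 coreceptor genes listed have a row, so the CD8 coreceptor was seen through Cd8b1 alone. The summed markers of granulocytes and mast cells differed far more between the groups than the T cell receptor sum, as the plot of summed marker levels shows. The NK cell sums were close, at 58.8 and 63.4 FPKM in Tbx21-KO and 62.6 and 68.0 FPKM in WT, but opposite changes lie behind them. Fcgr3 was at 47.4 and 48.8 FPKM in Tbx21-KO and 9.60 and 11.5 FPKM in WT. Cd160 was at 9.68 and 11.5 FPKM in Tbx21-KO and 45.6 and 50.7 FPKM in WT, and Klrb1c was lower too. The 16 granulocyte and mast cell markers with a row summed to 10883 and 11192 FPKM in Tbx21-KO, against 30.1 and 33.1 FPKM in WT. Of these 16 markers 15 were higher in Tbx21-KO and Kit was lower, but 9 passed the filter on low values through Tbx21-KO alone, so these had to differ. In WT, Csf3r and Cebpe were at 0 in library 1, and none was at 0 in both libraries. The 10 macrophage and monocyte markers with a row summed to 494 and 525 FPKM in Tbx21-KO and 199 and 199.8 FPKM in WT. All 9 that were tested were higher, 4 of them having passed the filter through Tbx21-KO alone. Most of the WT sum was Ly6c2, which differed little, at 183 and 192 FPKM in Tbx21-KO and 164 and 162 FPKM in WT. Lyz2 differed far more, at 198 and 216 FPKM in Tbx21-KO and 2.68 and 3.84 FPKM in WT. Of 7 B cell markers with a row only Ighm, Igkc and Blk were tested, and all 3 were higher, the call of Ighm (log2 fold change 0.16) not being kept in 5 of 16 alternatives. The B cell markers Ms4a1, Pax5 and Ebf1 were near 0 in both groups, with means of 0.027, 0.036 and 0.017 FPKM in Tbx21-KO and 0.0099, 0.0092 and 0.0062 FPKM in WT. Cd79a, also not tested, was higher, at 1.32 and 1.26 FPKM in Tbx21-KO and 0.495 and 0.370 FPKM in WT. Of 7 tested dendritic cell markers 5 were higher, namely Batf3, Cd74, H2-Aa, H2-Eb1 and H2-Ab1. Itgax and Xcr1 were not called, with means of 1.22 and 0.986 FPKM in Tbx21-KO and 1.58 and 1.43 FPKM in WT. Zbtb46, Flt3 and Clec9a were not tested, each averaging at most 0.268 FPKM in either group. Of 3 tested NK cell markers 1 was higher (Fcgr3) and 2 were lower (Cd160 and Klrb1c). Ncr1, not tested, was at 0.250 and 0.784 FPKM in Tbx21-KO and 1.59 and 1.37 FPKM in WT. Klra8, not tested either, averaged 0.178 FPKM in Tbx21-KO and 0.120 FPKM in WT. Most of the NK cell sum in Tbx21-KO was Fcgr3, which rose in the libraries that also held the granulocyte transcripts. Their part in its rise was not tested.

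**Figure D1:**
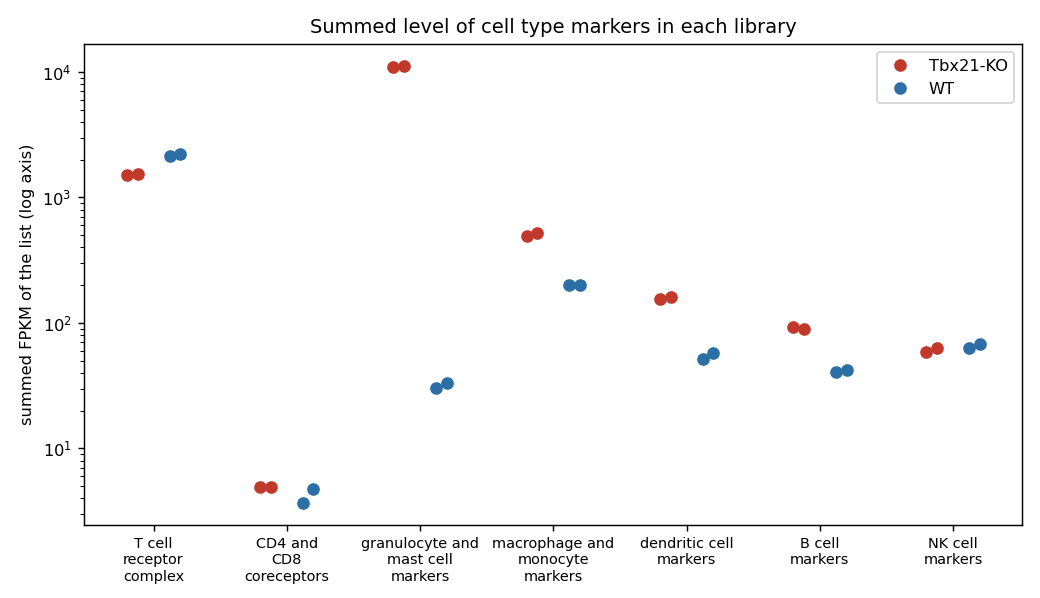
Summed FPKM (log axis) of 7 marker lists in each library, with Tbx21-KO libraries in red to the left of WT libraries in blue. The granulocyte and mast cell sum is 10883 and 11192 FPKM in Tbx21-KO against 30.1 and 33.1 FPKM in WT, while the T cell receptor sum is 1518 and 1550.5 FPKM in Tbx21-KO against 2127 and 2233 FPKM in WT.

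Of the 8 factors 3 rose (Prdm1, Hlx and Id2), 4 fell (Tbx21, Eomes, Zfp683 and Stat4) and Bhlhe40 was not called. The call is an adjusted p under 0.05 in limma, fitted to log2(FPKM + 1) of all 11013 genes with a mean of at least 1 FPKM and adjusted by the Benjamini-Hochberg method. In the same fit 53.1% of all genes tested were called, 30.1% as higher and 23.0% as lower in Tbx21-KO. The share called among the 8 has to be read against these shares. Zfp683 passed the filter through its WT level alone. The groups did not overlap for 7 of the 8 genes, and for 79.0% of all genes tested. The median log2 fold change was -0.13 over the 8 genes and 0.04 over all genes. Falls of at least 1 on the log2 scale that passed the test were seen for Tbx21, Eomes and Zfp683, and 1.86% of all genes had such a fall. Tbx21 is the targeted gene, and the 8 genes were chosen with earlier results of these data known, so this comparison is not a test. A rise of at least 1 was seen for Hlx, and 7.89% of all genes had one. Each log2 fold change is the Tbx21-KO value minus the WT value, and such differences understate the change of low genes, because 1 FPKM is added before the logarithm.

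**Figure D2:**
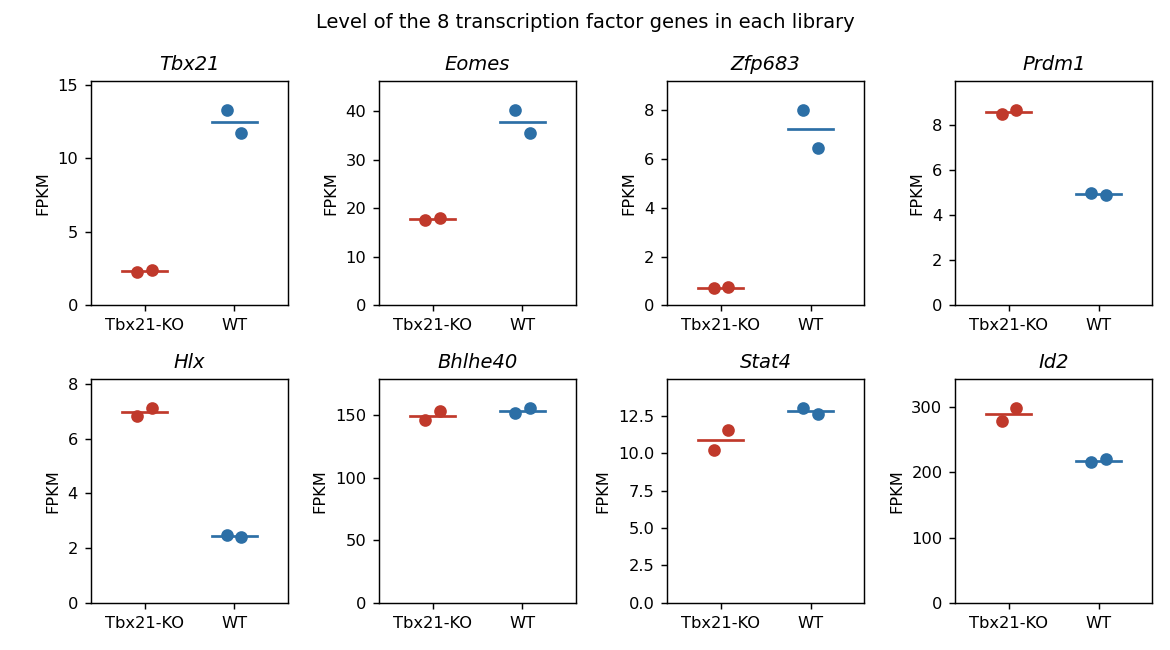
FPKM of each of the 8 genes in each library (points) with the group mean (line), Tbx21-KO on the left and WT on the right, every axis starting at 0. The groups are apart for every gene but Bhlhe40, whose 4 values lie between 146 and 156 FPKM.

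By level, which FPKM allows to be compared between genes because it is per length, the order in Tbx21-KO was Id2 (289 FPKM), Bhlhe40 (149.7), Eomes (17.8), Stat4 (10.9), Prdm1 (8.56), Hlx (6.98), Tbx21 (2.35) and Zfp683 (0.717). In WT it was Id2 (218 FPKM), Bhlhe40 (154), Eomes (37.8), Stat4 (12.8), Tbx21 (12.5), Zfp683 (7.23), Prdm1 (4.95) and Hlx (2.44). No neighbours in the Tbx21-KO order had overlapping values. In WT, Stat4 and Tbx21 overlapped, and the other neighbours did not. Stat4 shares 1033 of its 3872 exon bases with Gm28177, a gene on the same strand. Gm28177 was at 0.0849 and 0.106 FPKM in Tbx21-KO and 0.0567 and 0.0939 FPKM in WT. How reads of the shared bases were counted is not given, so the level and place of Stat4 are less certain. Id2 stood at percentile 98.8 of all genes tested in Tbx21-KO and 98.4 in WT, and Bhlhe40 at percentile 97.5 in Tbx21-KO and 97.7 in WT.

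Tbx21 (ENSMUSG00000001444, GRCm38 chromosome 11, 97098071 to 97115331, minus strand), the targeted gene, was at 2.29 and 2.41 FPKM in Tbx21-KO libraries 1 and 2 and at 13.2 and 11.7 FPKM in WT libraries 1 and 2. The groups lie far apart, and Tbx21-KO averaged 18.8% of the WT mean. These levels stand for 133 and 144 reads in Tbx21-KO and 823 and 703 reads in WT. The log2 fold change was -2.01 (limma, SE 0.08, 95% interval -2.21 to -1.81, adjusted p = 8.21e-05). The values cover the whole gene, so they do not tell from which exons the remaining reads come. Ranked by log2 fold change from the largest fall, Tbx21 stood at place 20 of 11013.

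Eomes (ENSMUSG00000032446, chromosome 9, 118478212 to 118486132, plus strand) was at 17.6 and 17.9 FPKM in Tbx21-KO and at 40.2 and 35.5 FPKM in WT. Both Tbx21-KO values are below both WT values, at 47.0% of the WT mean. The log2 fold change was -1.05 (limma, SE 0.07, adjusted p = 0.000371). Since Tbx21 and Eomes come from the same libraries, their ratio does not depend on library scaling. Eomes stood at 7.70 and 7.45 times the FPKM of Tbx21 in the Tbx21-KO libraries and at 3.03 times in each WT library. An antisense gene, Gm33460, shares 118 exon bases with Eomes and was at 3.04 and 1.48 FPKM in Tbx21-KO and 4.26 and 4.10 FPKM in WT. The sources used here do not say whether counting used strand, so reads of the shared bases cannot be told apart.

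Most other T-box genes were near 0. Of 17 T-box genes listed, 11 have a row and 3 were tested, of which 2 (Tbx21 and Eomes) were lower and 0 higher. Mga, a large T-box protein that pairs with MAX, was at 6.71 and 6.65 FPKM in Tbx21-KO and 6.56 and 6.64 FPKM in WT, and was not called (log2 fold change 0.01, limma adjusted p = 0.823). Tbx6, named after its values were seen, was just under the filter with means of 1.30 FPKM in Tbx21-KO and 0.678 FPKM in WT. Each of the other 7 averaged at most 0.141 FPKM in either group.

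Zfp683 (ENSMUSG00000049410, chromosome 4, 134053838 to 134058996, plus strand), the gene of Hobit, had the largest fall of the 8. It was at 0.699 and 0.735 FPKM in Tbx21-KO and at 8.01 and 6.45 FPKM in WT. The Tbx21-KO mean was 9.92% of the WT mean, and the 24 and 26 reads behind it compare with 294 and 229 in WT. The log2 fold change was -2.25 (limma, SE 0.11, adjusted p = 0.000174), place 12 of 11013 from the largest fall. Prdm1 (ENSMUSG00000038151, chromosome 10, 44437177 to 44528501, minus strand), the gene of Blimp-1, moved the other way. It was at 8.48 and 8.64 FPKM in Tbx21-KO and at 4.997 and 4.90 FPKM in WT. Here the Tbx21-KO libraries are the high ones, at 1.73 times the WT mean, with a log2 fold change of 0.69 (limma, SE 0.05, adjusted p = 0.000573). Within single libraries Prdm1 stood at 12.1 and 11.8 times the FPKM of Zfp683 in Tbx21-KO and at 0.624 and 0.759 times in WT. The more abundant of the pair was thus Prdm1 in Tbx21-KO and Zfp683 in WT.

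Other tested PRDM genes differed less in size than Zfp683 and Prdm1. Of the 16 genes in that list, which holds Zfp683 and Prdm1 too, 13 have a row and 7 were tested, 3 of them higher and 3 lower, with a median of 0.23. Prdm9 and Prdm10 rose by 0.36 and 0.27 on the log2 scale, and Prdm2 and Prdm4 fell by 0.31 and 0.35. These 4 calls were each lost or turned round in 2 to 9 of the alternative fits that could test them. Prdm2 and Prdm4 turned to 0.10 and 0.06 after rescaling to the T cell receptor list, and Prdm10 turned to -0.03 after quantile normalization.

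Genes that Hobit and Blimp-1 are known to govern in resident lymphocytes went both ways. Of 11 such genes tested, 6 rose, 2 fell and 3 were not called, with a median of 0.66. Itga1, an integrin chain of resident cells, was at 1.26 and 1.35 FPKM in Tbx21-KO and at 10.5 and 9.88 FPKM in WT, a log2 fold change of -2.28. Itgae, the chain of the integrin CD103, was at 8.10 and 7.07 FPKM in Tbx21-KO and 2.17 and 1.57 FPKM in WT, a log2 fold change of 1.59. S1pr1, the receptor for tissue exit that both repressors hold down in mice, was at 11.8 and 12.9 FPKM in Tbx21-KO and 4.63 and 4.34 FPKM in WT, and rose by 1.28. Rgs1 rose by 0.92 and the memory factor gene Tcf7 fell by 0.39, which turned to 0.04 with the T cell receptor list scaling.

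Hlx (ENSMUSG00000039377, chromosome 1, 184727140 to 184732619, minus strand) had the largest rise of the 8. It was at 6.83 and 7.12 FPKM in Tbx21-KO and at 2.48 and 2.40 FPKM in WT, or 363 and 390 reads in Tbx21-KO and 141 and 132 in WT. The Tbx21-KO mean was 2.86 times that of WT, and the groups are well apart. The log2 fold change was 1.21 (limma, SE 0.06, adjusted p = 0.000187). From the top of all log2 fold changes Hlx stood at place 689 of 11013. It rose in the libraries that also held the granulocyte transcripts, whose list sum was 10883 and 11192 FPKM in Tbx21-KO against 30.1 and 33.1 FPKM in WT. Their part in the rises of Hlx, Prdm1 and Id2 was not tested, and in bulk RNA more cells of a type and more RNA per cell cannot be told apart.

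**Figure D3:**
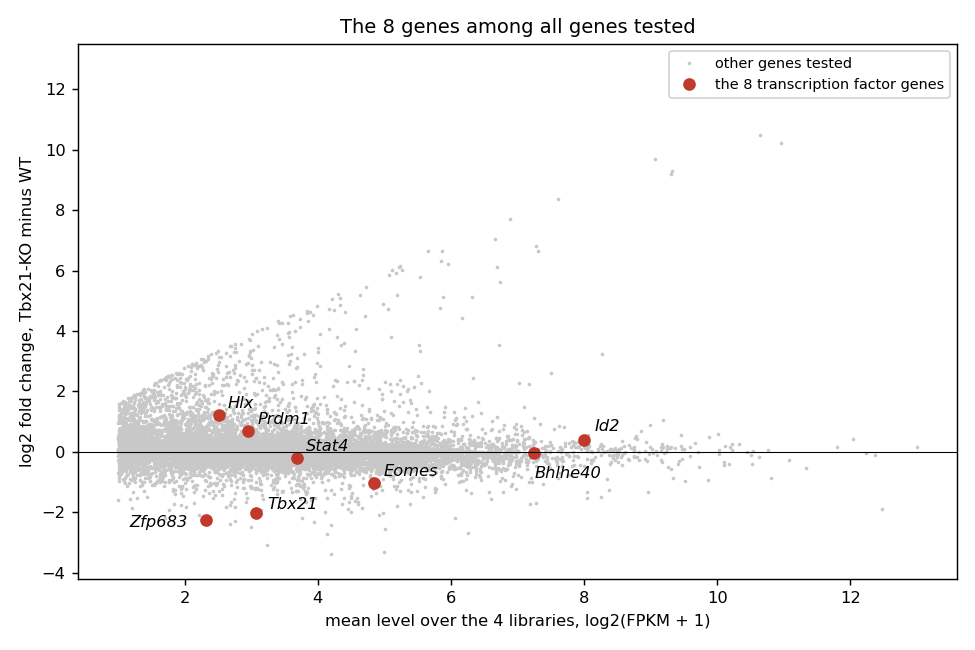
Log2 fold change, Tbx21-KO minus WT, against the mean level over the 4 libraries for all 11013 genes tested (grey), with the 8 genes in red. Zfp683 and Tbx21 lie at the lower edge of the cloud, at -2.25 and -2.01, and Hlx at 1.21 lies below many larger rises.

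Bhlhe40 (ENSMUSG00000030103, chromosome 6, 108660629 to 108666925, plus strand) was at 146 and 154 FPKM in Tbx21-KO and at 151 and 156 FPKM in WT. The groups overlap, and the log2 fold change was -0.04 (limma, SE 0.04, adjusted p = 0.509). Its 95% interval ran from -0.15 to 0.08. After rescaling to the T cell receptor list it was called higher, with a log2 fold change of 0.40. Its relative Bhlhe41 was at 0.147 FPKM or less in every library.

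Id2 (ENSMUSG00000020644, chromosome 12, 25093799 to 25097140, minus strand) was at 279 and 299 FPKM in Tbx21-KO and at 216 and 220.3 FPKM in WT. Both Tbx21-KO libraries are above both WT libraries, with a mean 1.33 times as high. The log2 fold change was 0.40 (limma, SE 0.05, adjusted p = 0.00236). Id1 and Id3 moved further and in opposite directions, while Id4 was not tested, at 0.011 FPKM or less in every library. Id1, a further inhibitor of E proteins, was at 12.9 and 13.8 FPKM in Tbx21-KO and 0.552 and 0.750 FPKM in WT, a log2 fold change of 3.12, and passed the filter through Tbx21-KO alone. Id3, an inhibitor of E proteins that marks memory T cells, was at 2.70 and 2.60 FPKM in Tbx21-KO and 6.84 and 6.25 FPKM in WT, a log2 fold change of -1.05. Within single libraries Id2 stood at 103 and 115 times the FPKM of Id3 in Tbx21-KO and at 31.6 and 35.3 times in WT.

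The E proteins that Id2 holds were lower or not called. Tcf12, which encodes HEB, was at 5.82 and 5.70 FPKM in Tbx21-KO and 10.5 and 10.03 FPKM in WT, and fell by 0.73 on the log2 scale. Tcf3, which encodes E2A, fell by 0.19, which turned to 0.23 with the T cell receptor list scaling. Tcf4 was not called, at means of 1.13 FPKM in both groups. Of the 6 tested Id and E protein genes 2 rose and 3 fell, with a median of -0.09.

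Stat4 (ENSMUSG00000062939, chromosome 1, 51987148 to 52107189, plus strand), the signal protein of interleukin-12, was at 10.2 and 11.5 FPKM in Tbx21-KO and at 13.01 and 12.6 FPKM in WT. The groups do not overlap, but the gap between Tbx21-KO library 2 and WT library 2 is narrower than the gap between the Tbx21-KO libraries. The log2 fold change was -0.22 (limma, SE 0.07, 95% interval -0.40 to -0.04, adjusted p = 0.0482). This call did not last: it was lost or turned round in 9 of 16 alternative fits, with adjusted p from 0.0117 to 0.489. Without Tbx21-KO library 1 the log2 fold change was -0.14 and not called, without WT library 1 it was -0.20 and without WT library 2 it was -0.24, both not called. With the replicate number as a block it was not called either (adjusted p = 0.0654). Rescaling to the T cell receptor list turned it to 0.19.

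Of 6 STAT genes tested, Stat4 among them, 3 rose, 2 fell and Stat6 was not called, with a median of 0.16. Stat5b, Stat2 and Stat5a rose by 0.65, 0.56 and 0.31, and Stat3 fell by 0.15, which turned to 0.28 with the T cell receptor list scaling.

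Around these signal proteins, of 9 tested genes of interleukin-12, interferon gamma and interleukin-27 signalling, 4 rose and 5 fell, Stat4 among them, with a median of -0.16. Il12rb2, the signalling chain of the interleukin-12 receptor, was at 18.4 and 18.1 FPKM in Tbx21-KO and 62.1 and 63.8 FPKM in WT, a log2 fold change of -1.73. Ifngr2, the signalling chain of the interferon gamma receptor, was at 7.82 and 8.94 FPKM in Tbx21-KO and 2.22 and 2.53 FPKM in WT, a log2 fold change of 1.47. Socs3, a feedback inhibitor of cytokine signals, rose by 1.11, and Il27ra, a chain of the interleukin-27 receptor, rose by 0.71. The part of the granulocyte transcripts in the rises of Ifngr2, Socs3 and Il27ra was not tested. Il6st, a shared chain of the interleukin-6 and interleukin-27 receptors, and Jak2 fell by 0.44 and 0.35. With the T cell receptor list scaling neither was called, Il6st at -0.17 (limma, adjusted p = 0.177) and Jak2 at 0.08, and the call of Il6st was not kept in 5 of 15 alternatives.

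**Figure D4:**
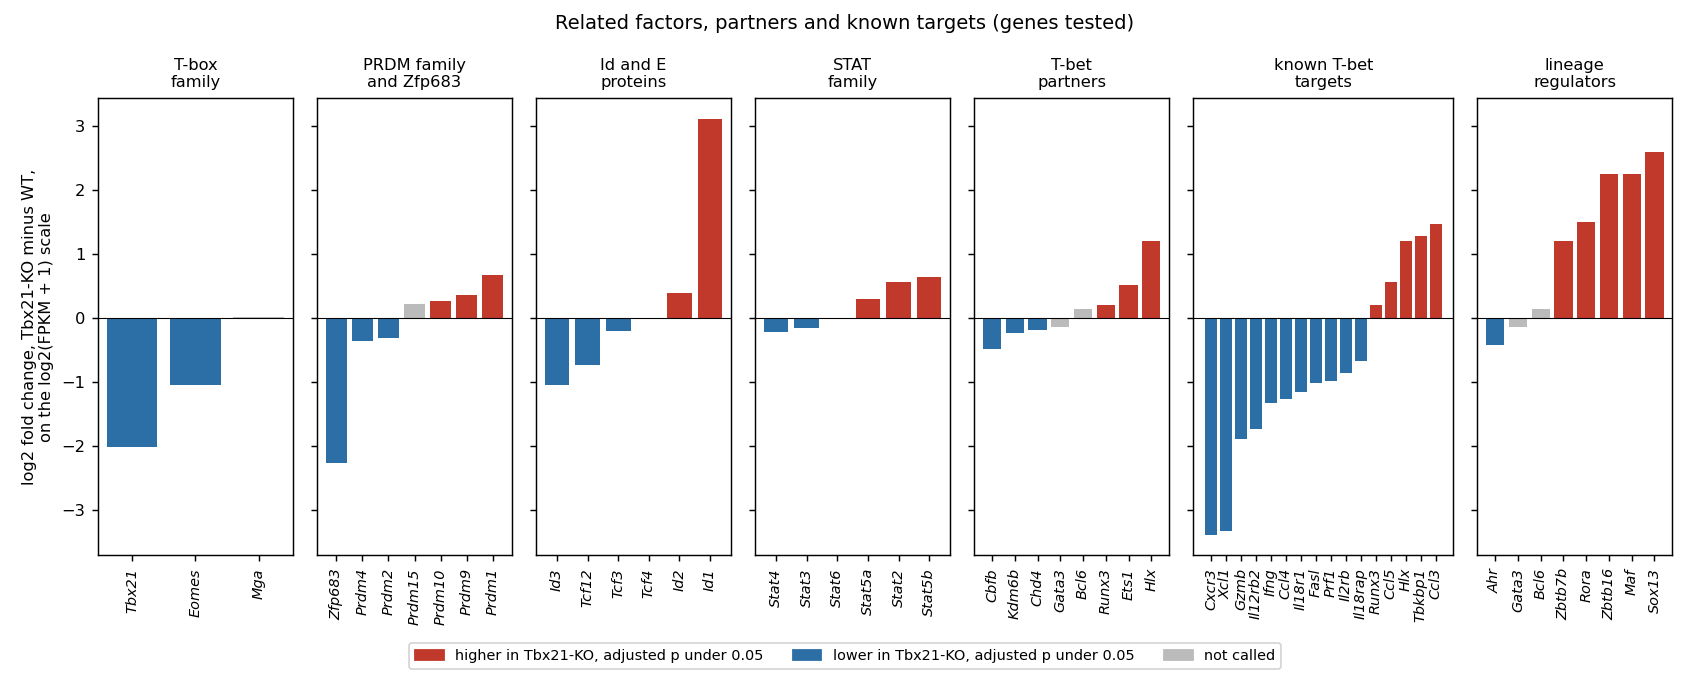
Log2 fold change, Tbx21-KO minus WT, of the tested genes in 7 lists, red where higher and blue where lower at an adjusted p under 0.05, grey where not called. The largest fall shown is that of Cxcr3, at -3.38, and the largest rise that of Id1, at 3.12.

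Of 8 tested genes whose proteins act with T-bet, 3 rose (Hlx, Ets1 and Runx3, by 1.21, 0.52 and 0.21), 3 fell (Cbfb, Kdm6b and Chd4, by 0.47, 0.23 and 0.18) and 2 were not called, with a median of 0.01. With the T cell receptor list scaling none of the 8 was lower, Kdm6b and Chd4 turning to 0.18 and 0.25. Of 16 tested genes known as T-bet targets, 11 fell and 5 rose, with a median of -0.99, where 23.0% of all genes were lower and 30.1% higher. These 11 and 5 stayed the counts after rescaling to the T cell receptor list, where 4.97% of all genes were lower and 70.3% higher. Cxcr3, the type 1 chemokine receptor, was at 2.52 and 1.95 FPKM in Tbx21-KO and 33.9 and 31.1 FPKM in WT, a log2 fold change of -3.38. Xcl1, a chemokine for dendritic cells, fell by 3.32 and Gzmb, the gene of granzyme B, by 1.89. Hlx, which is in this list as well as among the 8 factors, was 1 of the 5 that rose, beside Ccl3, Tbkbp1, Ccl5 and Runx3. Tbkbp1, the neighbour of Tbx21 on chromosome 11, was at 9.76 and 9.09 FPKM in Tbx21-KO and 3.44 and 3.15 FPKM in WT, a log2 fold change of 1.28.

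Other factors of effector and memory lymphocytes went both ways: of 23 tested, 11 rose, 9 fell and 3 were not called, with a median of 0.13. Batf3, Myb and Runx1 rose most, by 1.82, 1.54 and 1.498. Foxo1, a factor of resting and memory T cells, fell most, to 8.05 and 7.63 FPKM in Tbx21-KO against 16.2 and 15.3 FPKM in WT, a log2 fold change of -0.93. Ikzf3, the gene of Aiolos, and Irf8 fell by 0.85 and 0.82. Batf3, Myb and Runx1 are also active in myeloid cells or blood precursors, and they rose in the libraries in which the granulocyte list summed to 10883 and 11192 FPKM. Its part in these rises was not tested.

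Of 8 tested regulators of other T cell programmes, 5 rose, 1 fell and 2 were not called, with a median of 1.36. Of all genes tested 30.1% were higher and 23.0% lower. Sox13, a factor of gamma delta T cells that make interleukin-17, was at 10.7 and 10.3 FPKM in Tbx21-KO and 0.845 and 0.961 FPKM in WT, a log2 fold change of 2.60. Maf, a factor of the same cells and of interleukin-10 and interleukin-4 output, and Zbtb16, the gene of the innate-like T cell factor PLZF, each rose by 2.26. Sox13 and Zbtb16, and also Bcl6, which was not called, passed the filter through Tbx21-KO alone. The filter thus favours rises in the count and the median of this list. The markers of granulocytes were high in the same libraries. Ahr fell by 0.41, and by 0.04, not called, with the T cell receptor list scaling.

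The genes whose pattern over the 4 libraries lay closest to that of Tbx21, by Euclidean distance of log2(FPKM + 1) from the WT mean, were Car2 (distance 0.09), Cdh1 (0.13), Klra3 (0.19), Gzmb (0.21) and Gpc1 (0.22). Car2, a carbonic anhydrase gene, was at 10.8 and 11.9 FPKM in Tbx21-KO and 51.1 and 48.2 FPKM in WT. Cdh1, the gene of E-cadherin, was at 8.20 and 8.07 FPKM in Tbx21-KO and 35.1 and 35.1 FPKM in WT. With 4 libraries in 2 groups, this likeness amounts to a fall of similar size. Klra3 is a Ly49 receptor gene with near-identical relatives, so its level is uncertain.

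The sizes of these changes depend on what the libraries are scaled to, as the plot of differences under 4 scalings shows. Rescaling to the T cell receptor list moved the median of all genes by 0.38, rescaling to the 4 CD3 chains by 0.26 and quantile normalization by -0.14, all as log2 values. Under the first of these 4 of the 8 were higher and 3 lower, when 75.2% of all genes were called, 70.3% as higher and 4.97% as lower. With the CD3 chain scaling 4 were higher and 3 lower too, when 64.0% of all genes were called, 56.3% as higher and 7.65% as lower. After quantile normalization 3 were higher and 4 lower, when 56.7% of all genes were called, 22.1% as higher and 34.5% as lower. Tbx21, Eomes and Zfp683 stayed lower and Prdm1, Hlx and Id2 higher, each called, under all 3. Relative to the T cell receptor list the fall of Eomes was -0.62 in place of -1.05, and the rises of Prdm1 and Id2 were 1.07 and 0.84 in place of 0.69 and 0.40. Under that scaling 7 of the 17 tested genes of the list itself were lower and 7 higher. Trac was at -0.44, Lck at -0.80 and Cd28 at -0.99, while Lat was at 0.51. The part of the lower T cell receptor transcripts in the falls of Tbx21, Eomes and Zfp683 was not tested.

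**Figure D5:**
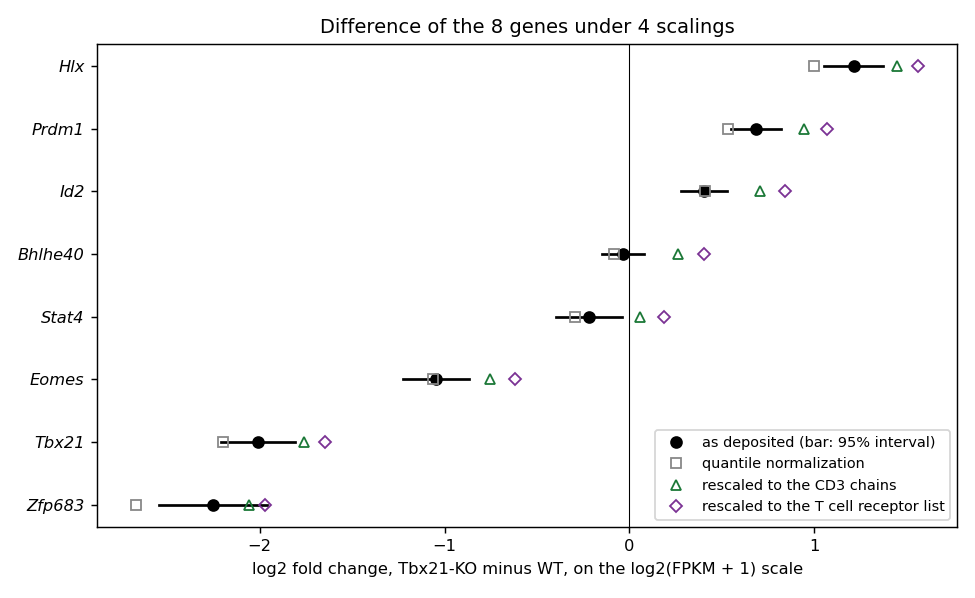
Log2 fold change, Tbx21-KO minus WT, of the 8 genes as deposited (black, with the 95% interval) and after 3 other scalings. The 3 lowest genes, from -2.25 to -1.05 as deposited, stay left of 0 and the 3 highest, from 0.40 to 1.21, stay right of it, while Stat4 and Bhlhe40 cross 0.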

How the data were processed

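The deposited table holds FPKM values that the authors computed per gene and library. The submitters' processing notes name the builds GRCm38 and mm10. The aligner, counter and strand setting were not given in the sources used here. Per the labels' protocols, the libraries came from column-purified RNA and an mRNA kit. The last of 24769 rows is cut short and was dropped. Gene IDs were matched to GENCODE M21 (GRCm38), 24720 of them with success. Library totals were inferred from low values, which are whole multiples of 1 read given the summed exon length of the gene (96.8% to 97.3% of values under 20 reads whole within 0.1 read).

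Values were tested as log2(FPKM + 1) with limma 3.58.1 in R 4.3.3 (intensity trend, Benjamini-Hochberg adjustment over the 11013 genes that average 1 FPKM or more), and the steps were checked on simulated data. An exact permutation test of 2 against 2 libraries cannot go below p = 0.33 and was not used. No label says that libraries came from separate animals or cultures, so p-values measure the spread between libraries, which may be technical. Libraries of a group differed by more than counting noise (median chi-square per gene 1.26 for Tbx21-KO and 1.38 for WT, against 0.455 from counting alone). Promoter sequences are from RefSeq (GRCm38.p6).

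The 8 genes and all lists were chosen with earlier results of these data known. From each list the text names at most the 3 largest rises and 3 largest falls with an adjusted p under 0.05 and groups that do not overlap; other genes given with values serve a comparison with the 8 or the check of cell type, and were chosen with values known. In all 16 alternatives were run. List genes without a row, such as Zeb2, are not analysed here.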

Additional observations from a re-analysis of the deposited data

How the results depend on the processing

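Over 16 alternatives the calls and directions of Tbx21, Eomes, Prdm1 and Id2 were kept, as were those of Zfp683 and Hlx in the 15 that could test them, since a mean FPKM of at least 5 leaves both out. Their log2 fold changes ran from -2.40 to -1.25 for Tbx21, -1.13 to -0.62 for Eomes, -3.30 to -1.09 for Zfp683, 0.45 to 1.07 for Prdm1, 0.69 to 1.56 for Hlx and 0.36 to 0.84 for Id2. The lowest size came with a pseudocount of 5 for Tbx21, Zfp683, Prdm1 and Hlx.

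The fall of Stat4 lost its call with a pseudocount of 0.1 (-0.24), and at -0.22 with no filter, with no variance trend and with the replicate block. Leaving out single libraries gave -0.30 to -0.14. Rescaling to the T cell receptor list and to the CD3 chains turned it to 0.19 and 0.058, neither called, and turned Bhlhe40 to 0.40 and 0.26, both called. These 2 settings change the scaling only, and the cause was not tested.

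Of all genes, 5846 were called, 3315 as higher and 2531 as lower. At a mean FPKM of at least 5, which tests 7032 genes, 2018 were higher. With the T cell receptor list scaling 7738 were higher and 547 lower, with the CD3 chain scaling 6204 and 842, and after quantile normalization 3801 were lower. Of the calls, 56.7% were higher as deposited, 93.4% and 88.0% with these 2 list scalings, 48.2% at a mean FPKM of at least 5 and 39.1% after quantile normalization. The same replicate number did not pair libraries (r of deviations -0.02 across 11013 genes), and the replicate block gave 5727 calls and changed the call of Stat4 alone among the 8 genes. With 24 and 26 reads in Tbx21-KO, the remaining level of Zfp683 rests on few counts.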
